A study of Mus musculus with 4 samples.

Results

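L2/3-Calb1 neurons are one of the 7 excitatory subtypes that the authors annotated in the mouse ventromedial prefrontal cortex (vmPFC). They were taken as all neurons that carry this subtype in the deposited annotation, which gave 334 of the 8210 excitatory neurons with a subtype. All 334 also carry the layer label L2/3-Cux2, and none of their cell barcodes occurred among the annotated cells of another library. Gene counts were not analysed here, so the level of Calb1 in these neurons was not checked. The subtype comes from clustering on gene expression, and the projection barcodes were measured in separate amplified libraries. The reference used for the transcriptome also held the 5 barcodes, and whether they entered the clustering is not given in the sources used here.

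The neurons came from male C57BL/6 mice that were 8 weeks old at injection and received barcoded rAAV2-retro viruses in 5 targets of 1 hemisphere. All groups carried all 5 viruses, each with EGFP under a short CAG promoter, and no uninjected mouse was included. Injected volume and titre differed between targets. The authors state that labelling efficiency can vary, so counts per target need not follow projection frequency. Each of 3 unsorted mice gave 1 library, and EGFP-positive cells of 3 further mice were pooled into 1 FAC-sorted library, called the sorted pool here, which has no replicate. Mice 1, 2 and 3 gave 103, 98 and 95 L2/3-Calb1 neurons and the sorted pool 38. Values in series are given in this order.

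Upper-layer pyramidal neurons are intratelencephalic cells. They send axons to other cortical areas, to the striatum and to the amygdala, whereas axons to the thalamus and hypothalamus arise mainly from neurons of deeper layers. Calb1 encodes calbindin, a calcium-binding protein, and Rorb encodes a nuclear receptor that is a common marker of middle and upper cortical layers. An rAAV2-retro virus is taken up by axon terminals and carried back to the cell body. The authors take a barcode above their threshold in a vmPFC neuron to stand for an axon in the injected region. They state that uptake by passing axons is not fully excluded.

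The 5 targets were the agranular insular cortex (AI), the dorsomedial striatum (DMS), the mediodorsal thalamic nucleus (MD), the basolateral amygdala (BLA) and the lateral hypothalamus (LH). The designed barcodes have 15 bases and are shown because each count below is a count of molecules with these bases. Capitals mark the bases that differ from the DMS barcode at the same position, the DMS barcode being the most frequent in L2/3-Calb1 neurons.
AI: CTGCAcCGaCGcAtt
DMS: gaaggcacagacttt
MD: gTTggcTGCAaTCCA
BLA: AaGACGCcGTCGCAA
LH: TaTTCGGAGgacGAC
The AI and MD barcodes differ from that of DMS at 10 positions, the LH barcode at 11 and the BLA barcode at 13. All pairs differ at 10 to 14 positions, and the authors allowed 2 mismatches when they read them.

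Barcode levels are raw counts of unique molecular identifiers (UMIs), the random tags that mark single cDNA molecules. A barcode was valid above the threshold seen in the deposited matrix, which was 28 UMIs (AI), 101 (DMS), 114 (MD), 35 (BLA) and 103 (LH). A neuron with at least 1 valid barcode is called barcoded, and a neuron with more than 1 is called collateral. The authors removed the cells with the most barcode UMIs, and any L2/3-Calb1 neurons among those are not counted here. Projectome reads ranged from 2542 per recovered cell in mouse 1 to 14639 in the sorted pool. Ranges after a share are Clopper-Pearson 95% intervals and hold counting error alone. Cells are not replicates, so each comparison used 1 value per library, and 4 libraries cannot give a p below 0.125 in the exact two-sided sign-flip test.

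L2/3-Calb1 neurons made up 4.22%, 4.57% and 4.48% of the subtyped neurons of mice 1, 2 and 3, a mean of 4.42% ± 0.180 (SD, n = 3). They made up 2.52% in the sorted pool, below each of the unsorted mice. The difference of -1.90 percentage points had p = 0.25 in an exact two-sided permutation test, the smallest p that 1 library against 3 allows. L2/3-Rorb, the other layer 2/3 subtype, made up 5.74%, 4.99% and 5.95% in the mice and 7.24% in the sorted pool.

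The transcriptomes of L2/3-Calb1 neurons were smaller than those of L2/3-Rorb neurons in each library. The median was 17189, 19103.5 and 19101 transcriptome UMIs in the mice and 27963.5 in the sorted pool, against 20089, 20660, 22218 and 28817 in L2/3-Rorb. The median number of detected genes was 5246, 5487.5, 5450 and 6611.5, against 5654, 5712, 5821 and 6664. L2/3-Calb1 thus had the second lowest median of transcriptome UMIs among the 7 subtypes in the 3 unsorted mice and the third lowest in the sorted pool. Ribosomal protein genes took a median of 6.11%, 6.08% and 6.35% of the UMIs in the unsorted mice, the highest of the 7 subtypes in each, and 4.82% in the sorted pool. The same medians were 5.25%, 5.47%, 5.76% and 4.40% in L2/3-Rorb. Mitochondrial genes took 7.21%, 7.05% and 6.93% in the mice and 3.33% in the sorted pool. These values describe the clustered cells and were not tested.

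Every L2/3-Calb1 neuron held at least 2 barcode UMIs, but most held few. The median over all 5 barcodes was 28, 42 and 40 UMIs in mice 1, 2 and 3 and 151.5 in the sorted pool. The medians of L2/3-Rorb were 93.5, 103, 160.5 and 250 UMIs, higher in each library. The log2 ratio of the L2/3-Calb1 to the L2/3-Rorb median had a mean of -1.44 (SD 0.56, n = 4 libraries). This is 2.71-fold on the linear scale, and the exact sign-flip permutation test gave p = 0.125, the smallest p possible. Among the 7 subtypes, L2/3-Calb1 had the second lowest median in each library, above L5-Htr2c.

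The difference remained when barcode UMIs were set against the size of the transcriptome. Both were summed over the neurons of a library. Per 10000 transcriptome UMIs, L2/3-Calb1 neurons held 31.3, 43.4 and 40.8 barcode UMIs in the mice and 73.3 in the sorted pool. L2/3-Rorb neurons held 63.7, 70.6, 81.8 and 113. The mean log2 ratio was -0.84 (SD 0.21, n = 4 libraries), or 1.79-fold, with an exact sign-flip permutation p = 0.125. It rests on sums and the ratio above on medians, so their sizes cannot be compared directly. Within a library, transcriptome and barcode UMIs of L2/3-Calb1 neurons had a Spearman rho between 0.298 and 0.610, given as a description of cells that share library and depth.

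The DMS barcode supplied most of these UMIs, and the BLA barcode was at or near 0 in most neurons and high in a few. DMS was the most frequent barcode in 317 of 334 neurons. This held for 300 of 318 L5-Htr2c, 953 of 1031 L6-Npy, 854 of 948 L5-S100b and 433 of 481 L2/3-Rorb neurons with barcode UMIs. It held less often in L6-Syt6 (3109 of 4812) and L5-Bcl6 (143 of 269). In L2/3-Calb1 the DMS median was 16, 27 and 24 UMIs in the mice and 71.5 in the sorted pool. The medians of MD were 4, 7, 7 and 31.5 UMIs, those of LH 4, 6, 5 and 19.5, and those of AI 2, 3, 3 and 9. The BLA barcode had a median of 0, 2, 0 and 5.5 UMIs, yet its highest counts reached 50, 128, 182 and 114. It was listed above 0 in 49.4% of L2/3-Calb1 neurons (median 18827 transcriptome UMIs) and in 4.06% of 9822 non-neuronal cells (median 4114). The DMS barcode was listed above 0 in 99.7% of L2/3-Calb1 neurons and in 84.7% of non-neuronal cells, cells that should carry no projection barcode. Pooled over libraries, DMS made up 55.6% of the barcode UMIs of L2/3-Calb1 neurons and 62.7% of those of non-neuronal cells. In the sorted pool the order was opposite, at 52.9% and 50.9%. The lead of the DMS barcode was thus not particular to L2/3-Calb1 neurons. The median DMS count of non-neuronal cells was 3, 5, 5 and 17 UMIs, below the L2/3-Calb1 median of the same library in each case. Of the non-neuronal cells, 0.153% passed a threshold. The authors set the thresholds partly on these cells, which kept this share low in advance.

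**Figure D1:**
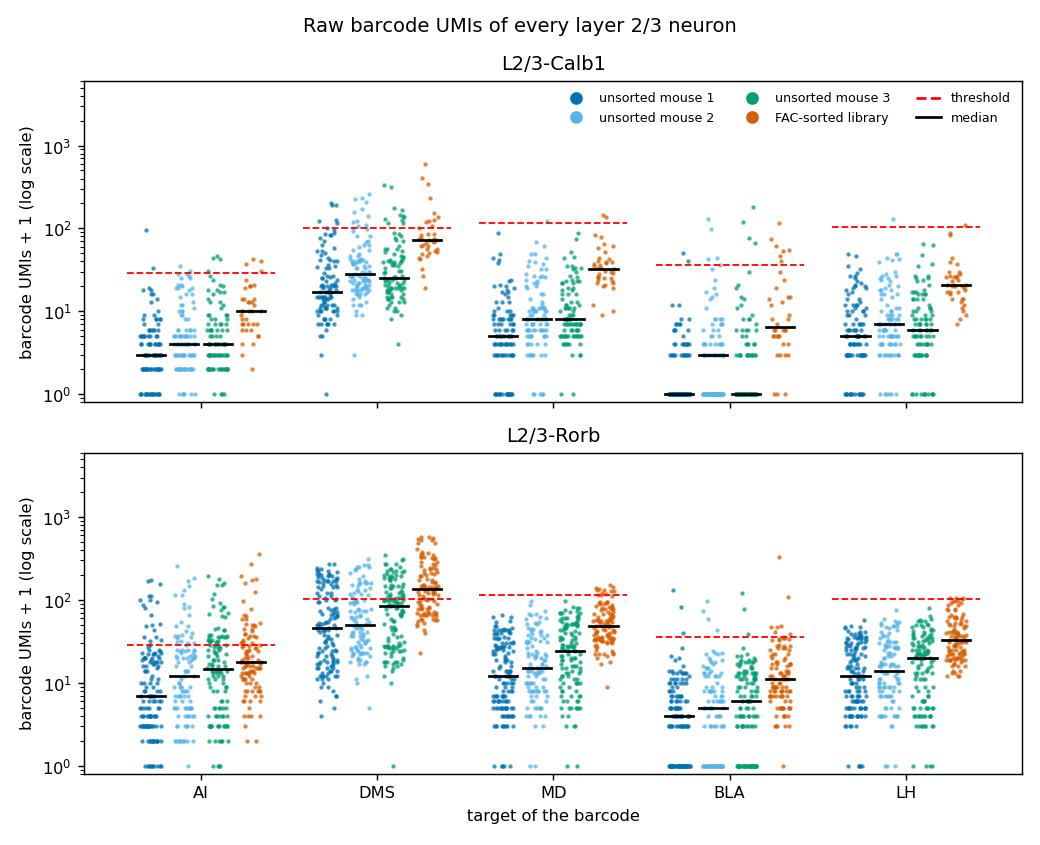
Raw UMIs plus 1 of each barcode (log axis) in every L2/3-Calb1 neuron (top) and L2/3-Rorb neuron (bottom), coloured by library, with medians as black lines and thresholds as dashed red lines. In L2/3-Calb1 neurons the DMS medians run from 16 UMIs in unsorted mouse 1 to 71.5 in the FAC-sorted library, below the threshold of 101, and the BLA barcode shows a few counts up to 182 above a dense base at 0.

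The barcoded share of L2/3-Calb1 neurons was below that of L2/3-Rorb neurons in each library. In unsorted mice 1, 2 and 3, 10 of 103 (9.71%), 16 of 98 (16.3%) and 15 of 95 (15.8%) L2/3-Calb1 neurons were barcoded, a mean of 13.9% ± 3.68 (SD, n = 3). In the sorted pool 16 of 38 were barcoded, which is 42.1% (interval 26.3% to 59.2%). The L2/3-Rorb shares were 38.6%, 40.2%, 48.4% and 67.0%. The mean difference was -27.6 percentage points (SD 4.01, n = 4 libraries), and the exact sign-flip permutation test gave p = 0.125. The difference was negative under every alternative tried, between -31.9 and -7.64 points. A barcoded label in the deposited annotation, whose rule is not given in the sources used here, marks more L2/3-Calb1 neurons, 89 (26.6%) in place of 57, and includes all 57. By that label the shares were 17.5%, 24.5%, 21.1% and 71.1%, against 47.9%, 54.2%, 62.7% and 89.0% in L2/3-Rorb. Among neurons between the 25th and 75th percentiles of L2/3-Calb1 transcriptome UMIs in their library, the barcoded L2/3-Calb1 shares were 3.92%, 22.9%, 12.8% and 50%. Those of L2/3-Rorb were 37.2%, 36.4%, 48.5% and 64.8%. The mean difference was then -24.3 points, with an exact sign-flip permutation p = 0.125.

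All 6 other subtypes together had barcoded shares of 17.4%, 20.0%, 20.5% and 52.1%. L2/3-Calb1 was lower in 4 of 4 libraries, by a mean of -6.49 points (SD 2.88), with an exact sign-flip permutation p = 0.125. This difference was not seen among neurons of matched transcriptome size, where L2/3-Calb1 had 3.92%, 22.9%, 12.8% and 50% and the other subtypes 13.1%, 17.1%, 17.8% and 44.7%. L2/3-Calb1 was then lower in 2 of 4 libraries, with a mean difference of -0.779 points and an exact sign-flip permutation p of 1. Of single subtypes, L6-Syt6 lay nearest, with 9.89%, 12.2%, 10.7% and 45.2%, so that L2/3-Calb1 was lower in mouse 1 and the sorted pool and higher in mice 2 and 3. L5-Htr2c had 0 barcoded neurons of 316 in the mice, which allows a share of up to 0.949%, and 1 of 4 in the sorted pool. The lowest share of L5-Bcl6, L6-Npy, L2/3-Rorb or L5-S100b in a mouse was 26.7%, above the L2/3-Calb1 shares of all 3 mice, and their lowest share in the sorted pool was 47.3%.

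**Figure D2:**
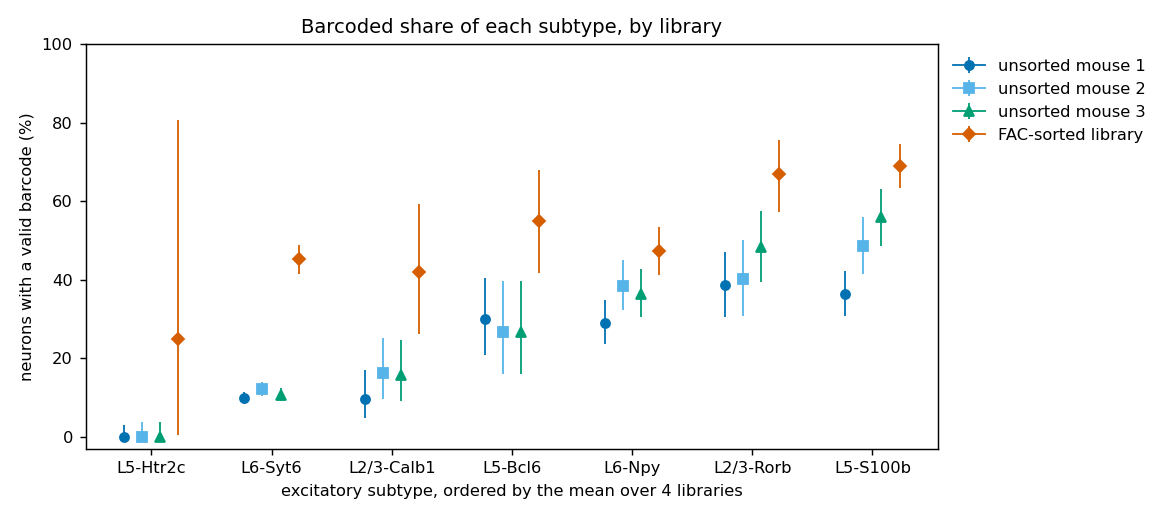
Percent of neurons with at least 1 valid barcode in each excitatory subtype (horizontal axis), by library, with exact binomial 95% intervals. L2/3-Calb1 lies between 9.71% and 16.3% for the unsorted mice and at 42.1% for the FAC-sorted library, below L2/3-Rorb in each.

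Barcoded L2/3-Calb1 neurons had larger transcriptomes than the others of their library. Their median was 19367, 19643 and 22099 transcriptome UMIs in the mice and 29854.5 in the sorted pool. Neurons without a valid barcode had 16932, 18661.5, 18752.5 and 24919. L2/3-Rorb showed the same order in each library, for example 20888 against 19915.5 in mouse 1. The part of this depth difference in the barcoded share was not tested beyond the matched neurons above.

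DMS was the most frequent valid target, with 6, 11 and 11 L2/3-Calb1 neurons in the mice and 10 in the sorted pool. These were 5.83%, 11.2% and 11.6% of the neurons, a mean of 9.54% ± 3.22 (SD, n = 3), and 26.3% in the sorted pool. The L2/3-Rorb shares were 29.3%, 26.2%, 38.9% and 63.3%, higher in each library. The mean difference was -25.7 points (SD 9.14, n = 4 libraries), with an exact sign-flip permutation p = 0.125 and an adjusted p of 0.3125 over the 5 targets. The valid DMS counts of L2/3-Calb1 neurons had a median of 143 UMIs and ran from 106 to 595. Of the 38 counts, 20 lay within 1.5 times the threshold. The nearest counts outside it were 100, 101 and 101 UMIs, and the nearest inside were 106, 107 and 110.

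Valid AI barcodes were found in 2, 2 and 4 L2/3-Calb1 neurons of the mice and in 4 of the sorted pool. These were 1.94%, 2.04%, 4.21% and 10.5% of the neurons, against 13.6%, 23.4%, 30.2% and 29.4% in L2/3-Rorb. The mean difference was -19.4 points (SD 5.98, n = 4 libraries), with an exact sign-flip permutation p = 0.125 and an adjusted p of 0.3125. The AI counts that passed were 32 and 96 in mouse 1, 30 and 34 in mouse 2, 30, 42, 43 and 45 in mouse 3, and 30, 36, 40 and 42 in the sorted pool. A single neuron, with 96 UMIs, thus stood well above the threshold of 28, and the nearest counts outside it were 26, 27 and 27. The AI share of all barcode UMIs, which uses no threshold, was 8.37%, 7.68%, 7.99% and 6.07% in L2/3-Calb1 and 13.5%, 16.8%, 14.7% and 10.1% in L2/3-Rorb.

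MD and LH, known mainly as targets of deeper layers, were rare at the authors' thresholds, which were highest for these targets (114 and 103 UMIs). MD passed in 1 neuron of mouse 2, with 123 UMIs, and in 2 neurons of the sorted pool, with 138 and 146. LH passed in 1 neuron of mouse 2, with 130 UMIs, and in 1 of the sorted pool, with 108. Mouse 1 had 0 of 103 neurons for either target, which allows a share of up to 2.91%, and mouse 3 had 0 of 95, which allows up to 3.16%. The differences from L2/3-Rorb were -0.723 points for MD and 0.225 for LH, with an exact sign-flip permutation p of 1 for each (adjusted p of 1). The direction of the MD difference was set by the sorted pool, without which it was 0.340 points, and that of LH by mouse 2, without which it was -0.0402. The highest MD counts outside the threshold were 82, 87 and 87 UMIs, and the highest LH counts outside were 64, 82 and 87.

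BLA was the second most frequent valid target of L2/3-Calb1 neurons at the authors' thresholds. It passed in 2, 4 and 4 neurons of the mice and 7 of the sorted pool, or 1.94%, 4.08%, 4.21% and 18.4% of the neurons. In L2/3-Rorb it passed in 3, 4, 3 and 7 neurons, or 2.14%, 3.74%, 2.38% and 6.42%. L2/3-Calb1 was higher in 3 of 4 libraries and slightly lower in mouse 1, with a mean difference of 3.49 points (SD 5.74, n = 4 libraries), an exact sign-flip permutation p of 0.25 and an adjusted p of 0.417. Most of this mean came from the sorted pool, without which it was 0.657 points.

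Among barcoded neurons the BLA share of L2/3-Calb1 was higher than that of L2/3-Rorb in 4 of 4 libraries. It was 20% (2 of 10), 25% (4 of 16) and 26.7% (4 of 15) in the unsorted mice, a mean of 23.9% ± 3.47 (SD, n = 3), and 43.8% (7 of 16, interval 19.8% to 70.1%) in the sorted pool. The L2/3-Rorb shares were 5.56% (3 of 54), 9.30% (4 of 43), 4.92% (3 of 61) and 9.59% (7 of 73), so the library values did not overlap. The intervals of the 2 subtypes overlapped in each mouse, for example 2.52% to 55.6% against 1.16% to 15.4% in mouse 1. They did not overlap in the sorted pool, where that of L2/3-Rorb was 3.94% to 18.8%. The mean difference was 21.5 points (SD 9.01, n = 4 libraries), with an exact sign-flip permutation p = 0.125. Pooled over libraries, the share was 29.8% of 57 barcoded L2/3-Calb1 neurons (interval 18.4% to 43.4%) and 7.36% of 231 L2/3-Rorb neurons (interval 4.35% to 11.5%). BLA was valid in 17 neurons of each subtype, so these pooled shares differ only in their denominators. The same share was 14.0% in L5-S100b, 8.44% in L6-Npy, 3.26% in L5-Bcl6 and 2.95% in L6-Syt6, and L2/3-Calb1 was higher than each of these in 4 of 4 libraries. The mean difference from L5-S100b, the nearest, was 14.8 points (SD 10.0, n = 4 libraries), with an exact sign-flip permutation p = 0.125 and an adjusted p of 0.125 over the 5 subtypes compared. Of all L5-S100b neurons, however, BLA passed in 3.06%, 7.33%, 10.5% and 9.71%, above L2/3-Calb1 in the mice and below it in the sorted pool. Per 10000 transcriptome UMIs, BLA UMIs were 1.27, 3.29, 3.51 and 6.35 in L2/3-Calb1. They were 2.84, 3.70, 3.71 and 5.99 in L2/3-Rorb and 2.58, 4.90, 6.94 and 7.30 in L5-S100b.

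The difference from L2/3-Rorb in the BLA share of barcoded neurons depended on the thresholds. Thresholds from non-neuronal cells alone leave out the authors' other control, the EGFP-negative cells, and were lower than theirs for every barcode. When each threshold was set so that 0.1% of non-neuronal cells exceeded it, the BLA threshold was 9.18 UMIs. Of barcoded neurons, 55.8% in L2/3-Calb1 and 57.4% in L2/3-Rorb were then valid for BLA. The mean difference over libraries was then -0.635 points. When 1% of them exceeded it, the BLA threshold was 3 UMIs and the difference was -21.1 points. With the BLA threshold alone at 9.18 UMIs the difference from L2/3-Rorb was 3.06 points, and with all the others moved and that of BLA kept at 35 it was 17.0. With thresholds set on barcode UMIs per 10000 transcriptome UMIs it was 61.0 points. Only 23 L2/3-Calb1 neurons were then barcoded, 2 to 7 in a library, with 17 valid for BLA, 5 for DMS and 0 for AI. With UMIs shared between barcodes resolved and the 0.1% thresholds recomputed, the BLA threshold then being 5 UMIs, the difference was 14.6 points. The BLA share of all barcode UMIs, which uses no threshold, was 4.06%, 7.57%, 8.60% and 8.66% in L2/3-Calb1 and 4.45%, 5.24%, 4.53% and 5.30% in L2/3-Rorb. It was higher in L2/3-Calb1 in 3 of 4 libraries, with a mean difference of 2.34 points (SD 1.96) and an exact sign-flip permutation p = 0.25. The share of neurons with the BLA barcode listed above 0 was lower in L2/3-Calb1 in each library, at 35.9%, 53.1%, 43.2% and 92.1%, against 65.7%, 66.4%, 73.8% and 99.1% in L2/3-Rorb. BLA UMIs were thus listed in a smaller share of L2/3-Calb1 neurons, while BLA made up a larger share of their barcode UMIs in 3 of 4 libraries.

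**Figure D3:**
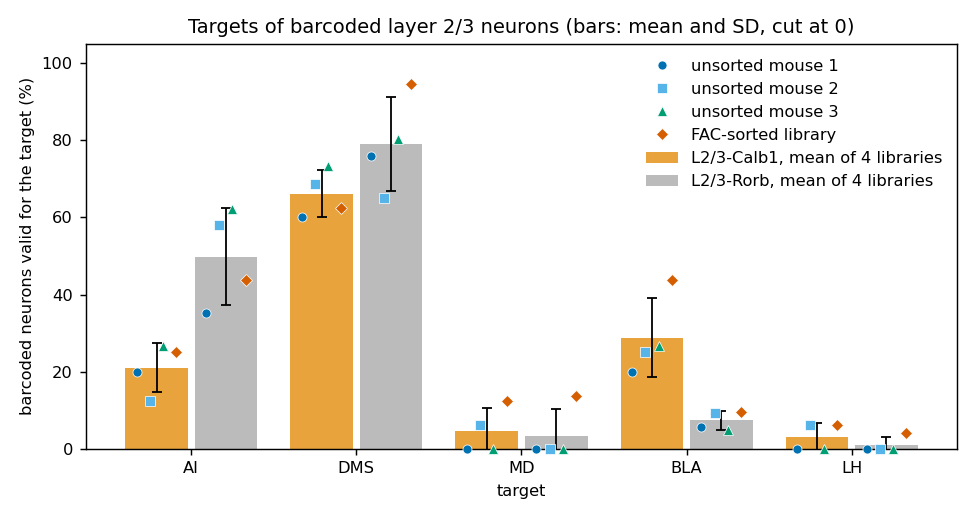
Percent of barcoded neurons valid for each target in L2/3-Calb1 (orange) and L2/3-Rorb (grey), with the mean and SD over 4 libraries and each library as a point. The BLA points of L2/3-Calb1 lie at 20% to 43.8%, above all those of L2/3-Rorb at 4.92% to 9.59%, and the AI points lie at 12.5% to 26.7% against 35.2% to 62.3%.

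The BLA counts that passed ran from 39 to 182 UMIs. They were 39 and 50 UMIs in mouse 1, 42, 43, 97 and 128 in mouse 2, 65, 75, 117 and 182 in mouse 3, and 39, 46, 53, 54, 60, 73 and 114 in the sorted pool. The median was 60 UMIs, and 6 of the 17 lay within 1.5 times the threshold. The nearest counts outside the threshold of 35 were 29, 31 and 35 UMIs. In the 30 neurons valid for DMS alone, the BLA count was a median of 6.09% of the DMS count and at most 29.2%. Of the 17 BLA neurons, 16 lay above that maximum, and 8 had more BLA than DMS UMIs. The thresholds keep the BLA count at or below 35 in neurons valid for DMS alone and above 35 in BLA neurons. The comparison is thus not independent of the calls. For 14 of the 16 the thresholds alone fix a ratio above that maximum, since the DMS count had to stay at or below 101. The other 2 were valid for both targets, with 65 BLA and 130 DMS UMIs in mouse 3 and 73 and 137 in the sorted pool. The remaining neuron had 46 BLA and 595 DMS UMIs, the highest DMS count of the subtype, and was valid for all 5 targets. In L2/3-Rorb, 13 of 17 BLA neurons lay above its DMS-alone maximum of 13.9%.

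**Figure D4:**
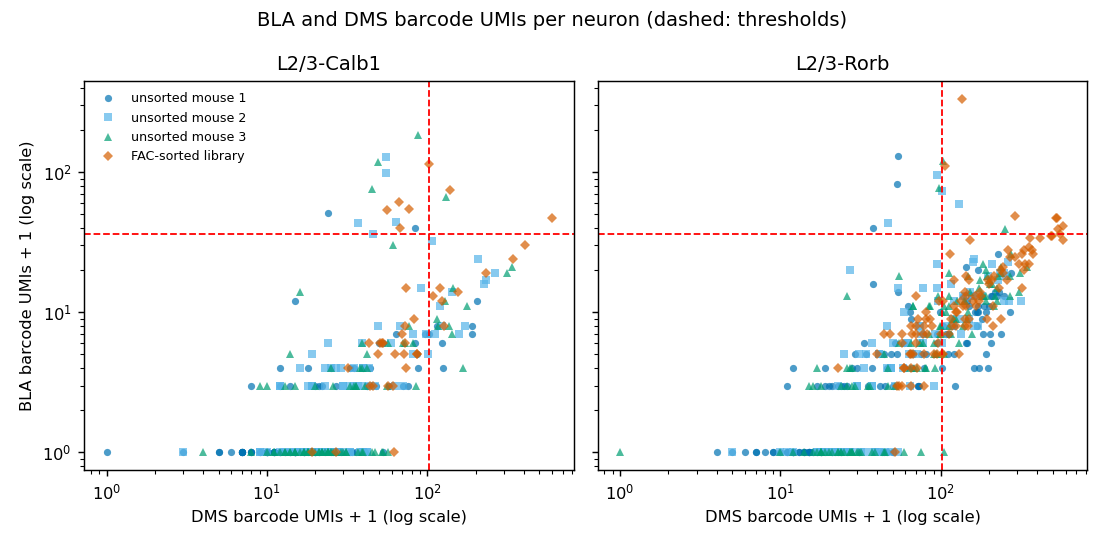
BLA against DMS barcode UMIs plus 1 (log axes) in each L2/3-Calb1 neuron (left) and L2/3-Rorb neuron (right), by library, with the thresholds dashed. In both subtypes the BLA count tends to rise with the DMS count, though BLA is listed above 0 in only 49.4% of L2/3-Calb1 neurons. Of the 17 BLA neurons of L2/3-Calb1, 16 have a higher ratio of BLA to DMS than any neuron valid for DMS alone. The thresholds limit the ratio in each group and alone fix this order for most of the 16.

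Most barcoded L2/3-Calb1 neurons had a single valid target. Of 57 neurons, 47 had 1 target, 7 had 2, 2 had 3, none of 57 had 4 (which allows up to 5.26%) and 1 had 5. DMS alone was found in 30 neurons, BLA alone in 12, AI alone in 4 and LH alone in 1. BLA alone made up 21.1% of barcoded L2/3-Calb1 neurons and 1.73% of barcoded L2/3-Rorb neurons. The combinations were AI with DMS in 3 neurons, AI with BLA in 2, DMS with BLA in 2, AI with DMS and MD in 2, and all 5 targets in 1. MD was not found alone.

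Collateral neurons were 0 of 10, 2 of 16 and 4 of 15 in the mice and 4 of 16 in the sorted pool. Their shares of 0%, 12.5%, 26.7% and 25% compare with 16.7%, 32.6%, 45.9% and 41.1% in L2/3-Rorb. For mouse 1, 0 of 10 allows a share of up to 30%. L2/3-Calb1 was lower in 4 of 4 libraries, with a mean difference of -18.0 points (SD 1.93, n = 4 libraries) and an exact sign-flip permutation p = 0.125. The size of this difference depended on how UMIs were counted. It was -4.09 points (exact sign-flip permutation p = 0.375) when a UMI found with several barcodes was kept for the most-read barcode alone, and in the sorted pool the share was then 2 of 15 in L2/3-Calb1 and 6 of 70 in L2/3-Rorb, the opposite order. It was -3.19 points (exact sign-flip permutation p = 0.5) when only UMIs of at least 2 reads were counted. Collateral neurons held a median of 425 barcode UMIs and 25005 transcriptome UMIs, and neurons with 1 target held 206 and 21148. The AI, DMS and MD neuron of mouse 2 had 43264 transcriptome UMIs, the highest of the 98 L2/3-Calb1 neurons of that library, and the neuron with all 5 targets had 30836.

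Many barcode molecules shared their UMI with another barcode of the same neuron. In L2/3-Calb1 neurons this held for 34.5%, 34.4% and 35.7% of molecules in the mice and 28.9% in the sorted pool. The corresponding shares in L2/3-Rorb were 43.0%, 43.1%, 46.8% and 35.0%. By barcode, 20.9%, 20.3%, 20.3% and 16.4% of the DMS molecules of L2/3-Calb1 neurons were shared, and 54.1%, 59.5%, 62.8% and 53.0% of the AI molecules. When such a UMI was kept only for its most-read barcode, 37 of 38 DMS and 16 of 17 BLA calls passed the same thresholds, but 4 of 12 AI, 1 of 2 LH and 0 of 3 MD calls. Barcoded neurons were then 55 in place of 57, and collateral neurons 3 in place of 10. In L2/3-Rorb, collateral neurons were 20 of 224 by this rule in place of 81 of 231.

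The AI calls divided by the company of DMS. In the 6 neurons valid for AI and DMS, the AI count was 7.06% to 15.2% of the DMS count, inside the 5.61% to 18.9% seen in neurons valid for DMS alone. After shared UMIs were kept for the most-read barcode, 1 to 4 AI UMIs were left in each of these 6 neurons. In the 6 AI neurons without DMS, where the thresholds keep this ratio high, the AI count was 34.9% to 185% of the DMS count. All of these but 1 kept at least 27 AI UMIs, the exception being the AI and BLA neuron of mouse 3, whose AI count was 0. BLA calls did not divide in this way. Of the 3 BLA neurons also valid for DMS, those of mouse 3 and the sorted pool with 2 targets kept 56 of 65 and 64 of 73 BLA UMIs, and the neuron valid for all 5 targets kept 3 of 46. The 14 BLA neurons without DMS kept between 37 and 178.

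**Figure D5:**
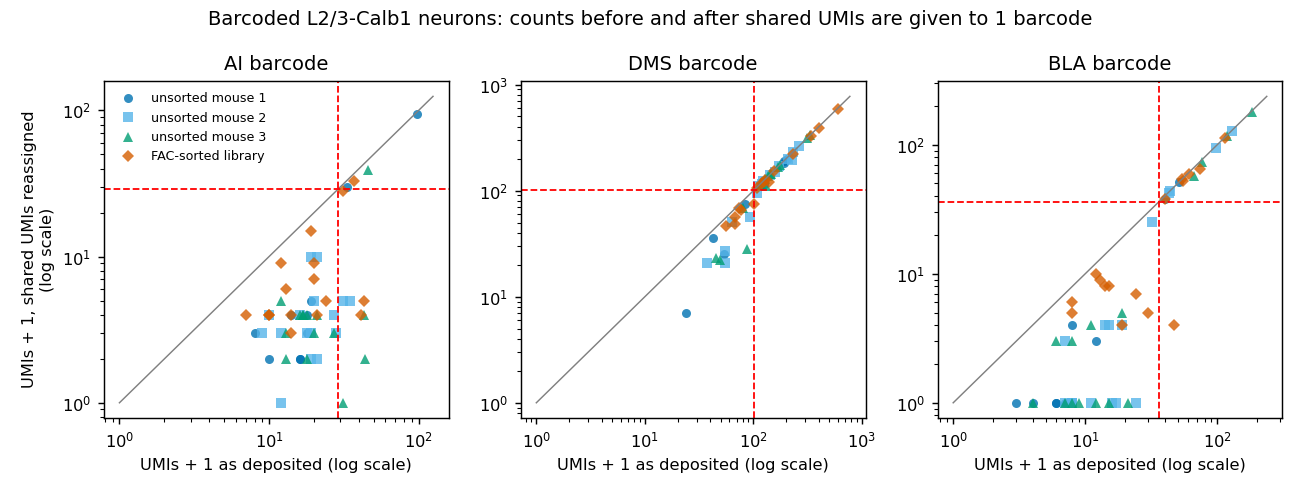
UMIs plus 1 of the AI, DMS and BLA barcodes in the 57 barcoded L2/3-Calb1 neurons as deposited (horizontal) and after each shared UMI was kept for its most-read barcode (vertical), on log axes, with the thresholds dashed and equality as a grey line. DMS and BLA calls stay near equality with 37 of 38 and 16 of 17 above the threshold, and 4 of 12 AI calls stay above it. The thresholds were not recomputed for the reassigned counts.

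The barcoded share was higher in the sorted pool than in each mouse. It was 42.1%, against 9.71% to 16.3% in the unsorted mice, a difference of 28.2 points with p = 0.25 in an exact one-sided permutation test, the smallest p that the design allows. The sorted pool also had the most reads per recovered cell. After reads were drawn down to the depth of mouse 1, 4 of 38 sorted neurons were barcoded (10.5%), against 9.71%, 11.2% and 11.6% in the unsorted mice, a difference of -0.311 points. The thinned value of the sorted pool lay within the range of the mice. The thinned share of L2/3-Rorb was 32.1% in the sorted pool and 33.6% to 38.6% in the unsorted mice. This thinning equalized reads per recovered cell, not per neuron, and kept the thresholds. Subtyped neurons were 1505 of 2068 recovered cells in the sorted pool and 2440 of 8042 in mouse 1. The thinning can thus also remove reads that came with the enrichment by the sort, so the thinned shares cannot separate sort from depth. Sort, depth and the pooling of mice cannot be told apart in this library.

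Seen from the targets, L2/3-Calb1 neurons formed 17 of the 163 BLA-barcoded neurons with a subtype (10.4%, interval 6.19% to 16.2%), although they were 4.07% of all subtyped neurons. Their share of BLA-barcoded neurons was 9.09%, 16% and 10.8% in the mice and 8.86% in the sorted pool, in each case above their share of all neurons of that library. Their share of DMS-barcoded neurons was 3.09%, 5.09%, 4.26% and 1.74%, below their share of all neurons in mice 1 and 3 and the sorted pool and above it in mouse 2. Their share of AI-barcoded neurons was 1.71%, 1.23%, 1.84% and 1.29%, below it in each library. They formed 3 of the 561 MD-barcoded and 2 of the 334 LH-barcoded neurons. Among the 163 BLA-barcoded neurons, L5-S100b formed 70, L6-Npy 33 and L2/3-Rorb 17, although they were 11.6%, 12.6% and 5.87% of all subtyped neurons. L6-Syt6 formed 23 and L5-Bcl6 3, at 58.7% and 3.29% of subtyped neurons. A raised share of BLA-barcoded neurons was thus not particular to L2/3-Calb1, and these counts rest on the BLA threshold of 35 UMIs.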

How the data were processed

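For 3 unsorted mice and 1 FAC-sorted library pooled from 3 mice, the authors deposited projectome reads, tables of barcode UMI counts per cell, a joined count matrix and an annotation. The counts were made by the authors with a modified deMULTIplex, allowing 2 mismatches and without normalization. Counts of a single UMI are listed as 0 except for AI. The joined matrix keeps only counts past each barcode's threshold, and cells with the highest barcode counts were removed by the authors against doublets. No further doublet caller was run. The deposited annotation gives transcriptome UMIs, genes, the percent of mitochondrial and ribosomal UMIs as computed by the authors, cell type and subtype. Its own barcoded label, which marks more neurons than the thresholds do, was used only as an alternative. Another 22 columns of these tables were not used. The submitters' processing notes name Cell Ranger and mm10.

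L2/3-Calb1 neurons were joined by cell name to the raw counts. A recount from the reads, with single UMIs set to 0 for all barcodes but AI, equalled 100% of the deposited entries. Valid barcodes were those above the thresholds read from the joined matrix. Shares have Clopper-Pearson intervals, and beside a count of 0 stands the share that 3 counts would make. L2/3-Calb1 was compared with other subtypes within each library through an exact sign-flip permutation test (two-sided, 4 differences), adjusted by Benjamini-Hochberg over 5 targets or 5 subtypes. Comparisons with subtypes other than L2/3-Rorb, except all others together, and of the other targets' shares of UMIs were added after the data were seen. The FAC-sorted library was set against the 3 mice by an exact permutation test. Cells were not used as replicates. Named were all 5 targets, all 7 subtypes where ranked, every combination in L2/3-Calb1 neurons and the 3 counts nearest to a threshold on each side. The neurons and comparisons were chosen with earlier results of these data known.

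Alternatives were other thresholds, exact matches, UMIs of at least 2 reads, UMIs shared between barcodes kept for the most-read one (dropped if tied), reads drawn down to the lowest depth per recovered cell, neurons of matched transcriptome UMIs, another denominator and libraries left out. Thresholds moved for BLA alone or for all others, and the annotation's barcoded label, were chosen after seeing the data. The code passed 6 of 6 checks on simulated data. Python 3.11.15, numpy 2.4.6, pandas 2.3.3 and scipy 1.17.1 were used.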

Additional observations from a re-analysis of the deposited data

Results flagged for a closer look

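The DMS share of all barcode UMIs differed in direction between the mice and the sorted pool. In all 3 mice it was higher in L2/3-Calb1 than in L2/3-Rorb, by 1.85, 4.03 and 2.61 percentage points, and in the sorted pool the difference was -1.88 points (52.9% against 54.8%). The difference between the mice and the sorted pool was not tested, and over 4 libraries the mean of 1.65 points had p = 0.375 in the exact sign-flip permutation test (adjusted p of 0.375).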

How the results depend on the processing

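With 4 libraries no alternative could pass 0.05, so only direction and size can change. Thresholds taken from non-neuronal cells alone, without the authors' EGFP-negative control, reversed most. Where 0.1% of these cells exceeded the thresholds, the differences from L2/3-Rorb were -15.4 percentage points for the BLA and -12.0 for the LH share of neurons, and the BLA share of barcoded neurons differed by -0.635 from L2/3-Rorb and -1.54 from L5-S100b. Where 1% exceeded them, these were -25.5, -24.8, -21.1 and -20.6, and -13.5 from L6-Npy, -18.4 from L5-Bcl6 and -2.29 from L6-Syt6. With 0.1% in each library, BLA was -14.4, LH -17.4 and the difference from L5-S100b -2.83. The sorted pool had only 73 non-neuronal cells for this, too few to place a 0.1% tail. With shared UMIs kept for the most-read barcode, the DMS share of UMIs differed by -2.62, and by -0.0600 in neurons of matched transcriptome size, where LH was -0.463. With the BLA threshold alone set by 0.1% of non-neuronal cells, an alternative chosen after seeing the data, the difference from L5-Bcl6 was -11.4. Another such alternative, shared UMIs resolved with thresholds recomputed, gave 0.697 for MD. With reads thinned, the sorted pool minus the mice was -0.311 for the barcoded share. Leaving out 1 library gave -1.30 to 0.340 for MD and -0.0402 to 0.340 for LH. The causes were not tested. The other 289 values did not reverse the mean, though single libraries could differ from it. Among them the MD and LH differences were 0 when only UMIs of at least 2 reads were counted. Ranges were -31.9 to -7.64 for the barcoded share, -13.2 to -0.779 for that against all other subtypes and -22.7 to -3.19 for the collateral share. They were -30.3 to -6.94 for AI and -29.3 to -5.23 for DMS. Only 57 L2/3-Calb1 neurons were barcoded, 10 to 16 in a library, which limits every share among them. The unsorted and sorted libraries share no replicate numbers, so they could not be paired with each other. Subtypes were compared as pairs within each library.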
